A study of Homo sapiens with 4 samples.

Results

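The promoters of 6 genes of the Fanconi anaemia pathway, FANCA, FANCE, FANCL, FANCD2, FANCI and BRIP1, were described by the regions of histone H3 lysine 9 acetylation (H3K9ac) called around them in T98G glioblastoma cells. They were chosen by name and position: every called region reaching within 5 kb of the hg19 start of 1 of these genes was taken. This gave 10 of the 26828 regions called in cells with a control shRNA (shNT) and 17 of the 39303 regions called in cells with an shRNA against RBBP4 (shRBBP4). T98G is an established human glioblastoma cell line. The cells were at passage 4, and both groups had received their shRNA by lentivirus, so the control cells differed from the others in the shRNA and not in having been transduced. The series has 4 samples, and each shRNA is represented by 1 H3K9ac library and 1 input library. The inputs and the level of RBBP4 in the cells were not analysed here. With 1 library per group there is no replicate error, so no difference below has a test, and no statement is made about a change of the mark.

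The Fanconi anaemia pathway repairs DNA strands that have been covalently joined to each other, as alkylating drugs and aldehydes do. A nuclear core complex, with FANCA and FANCE among its subunits and FANCL as its ubiquitin ligase, attaches a single ubiquitin to FANCD2 and FANCI, which then clamp onto DNA and direct the nucleases and recombination proteins that finish the repair. BRIP1, also called FANCJ, is a DNA helicase that binds BRCA1 and acts in the later steps. H3K9ac is a histone mark of active promoters, where it usually lies on the nucleosomes on either side of a nucleosome-poor start site. RBBP4 is a histone-binding subunit of several chromatin complexes, among them histone deacetylase complexes and the MuvB core of the DREAM complex, which represses cell cycle genes through E2F sites and through an element called CHR.

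RefSeq promoter sequences on GRCh38.p14 were found for 5 of the 6 members, and 4 are printed, of genes with unlike regions. FANCD2 had regions on both sides of its start, and FANCL had shorter coverage in shRBBP4. BRIP1 had the longest coverage in shRBBP4, and FANCE had no region. Whether the sequence bears on the regions was not tested. Each printed sequence runs 5′ to 3′ from 250 bases before to 30 bases after the RefSeq start. Capitals mark, on either strand, the E2F core GGCGGGAA, its forms TTTGGCGC, TTTCCCGC, TTTGCCGC and TTTCGCGC, the CHR as TTTGAA or TTCGAA and the CCAAT box. In FANCE, which holds none of these, capitals mark the GC box GGGCGG instead. These positions are on another build than the regions and were not lined up with them base by base.
FANCD2, chr3:10026187-10026466, plus strand: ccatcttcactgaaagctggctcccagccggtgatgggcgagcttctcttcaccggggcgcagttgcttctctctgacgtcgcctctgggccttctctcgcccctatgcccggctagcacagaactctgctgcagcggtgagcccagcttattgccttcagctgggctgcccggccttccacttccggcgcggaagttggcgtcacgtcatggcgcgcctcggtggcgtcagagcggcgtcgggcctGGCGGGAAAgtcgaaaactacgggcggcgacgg
FANCL, chr2:58241296-58241575, minus strand: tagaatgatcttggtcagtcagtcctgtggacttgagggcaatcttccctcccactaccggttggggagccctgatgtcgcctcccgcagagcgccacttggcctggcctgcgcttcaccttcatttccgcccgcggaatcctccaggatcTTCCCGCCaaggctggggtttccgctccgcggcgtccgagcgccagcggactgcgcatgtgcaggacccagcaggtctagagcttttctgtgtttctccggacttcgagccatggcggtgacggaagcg
BRIP1, chr17:61863499-61863778, minus strand: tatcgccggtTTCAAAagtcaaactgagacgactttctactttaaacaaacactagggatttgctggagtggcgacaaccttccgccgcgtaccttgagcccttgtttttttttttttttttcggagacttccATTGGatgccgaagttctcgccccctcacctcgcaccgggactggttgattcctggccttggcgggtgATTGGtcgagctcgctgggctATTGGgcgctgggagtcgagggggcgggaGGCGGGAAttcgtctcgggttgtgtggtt
FANCE, chr6:35452088-35452367, plus strand: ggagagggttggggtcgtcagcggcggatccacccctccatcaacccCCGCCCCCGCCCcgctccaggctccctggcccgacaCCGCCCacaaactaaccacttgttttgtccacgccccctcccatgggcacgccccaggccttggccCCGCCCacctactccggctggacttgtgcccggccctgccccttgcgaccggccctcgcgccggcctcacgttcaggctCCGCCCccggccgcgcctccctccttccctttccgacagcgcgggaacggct

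Matches to the E2F core were present in FANCD2, FANCL and BRIP1, against 3.16% of the 35116 promoters of 300 bases in the same table. In FANCD2 the match began 3 bases before the start and overlapped a match to TTTCCCGC, and in BRIP1 it began on base 2 after the start. In FANCL it lay 99 bases before the start on the opposite strand. FANCA held no E2F core but 1 of the other E2F forms, TTTGCCGC, 172 bases before its start, and such a form was present in 3.31% of all promoters. BRIP1 alone of the 5 held a CHR match, 240 bases before its start (16.4% of all promoters), and it held 3 CCAAT boxes, where FANCA held 1 (34.6% of all promoters hold at least 1). FANCD2 alone held the ETS core CCGGAAG (10.3% of all promoters). FANCE held 6 GC boxes in its 300 bases, the last of them beyond the printed stretch, and the other 4 promoters held 1 each (45.0% of all promoters hold at least 1). FANCE had the highest GC content of the 5, 73.7%, and BRIP1 the lowest, 55.3%, against a median of 58.7% over all promoters. The ratio of observed to expected CpG was 0.82 in FANCE, between 0.775 in FANCL and 0.986 in BRIP1, with a median of 0.579 over all promoters. A match is a description of letters in this window and says nothing of which proteins were bound.

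Regions were called at 5 of the 6 starts, and these were the same 5 genes in both libraries. FANCE had no region in either. No start lay inside a region, in either library, so every region could be placed upstream or downstream in the direction of transcription. Downstream regions were present at all 5 genes in both libraries. Upstream regions were present at 2 genes in shNT, FANCD2 and BRIP1, and at 4 in shRBBP4, with FANCA and FANCI added. Of the length covered over the 6 windows, 77.2% lay downstream of the starts in shNT and 72.4% in shRBBP4. FANCD2 was the one gene with more covered length upstream than downstream, in both libraries. The same counts and shares were not computed over all gene starts, for want of their hg19 positions. Whether those of these genes are high or low among promoters therefore cannot be said.

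**Figure D1:**
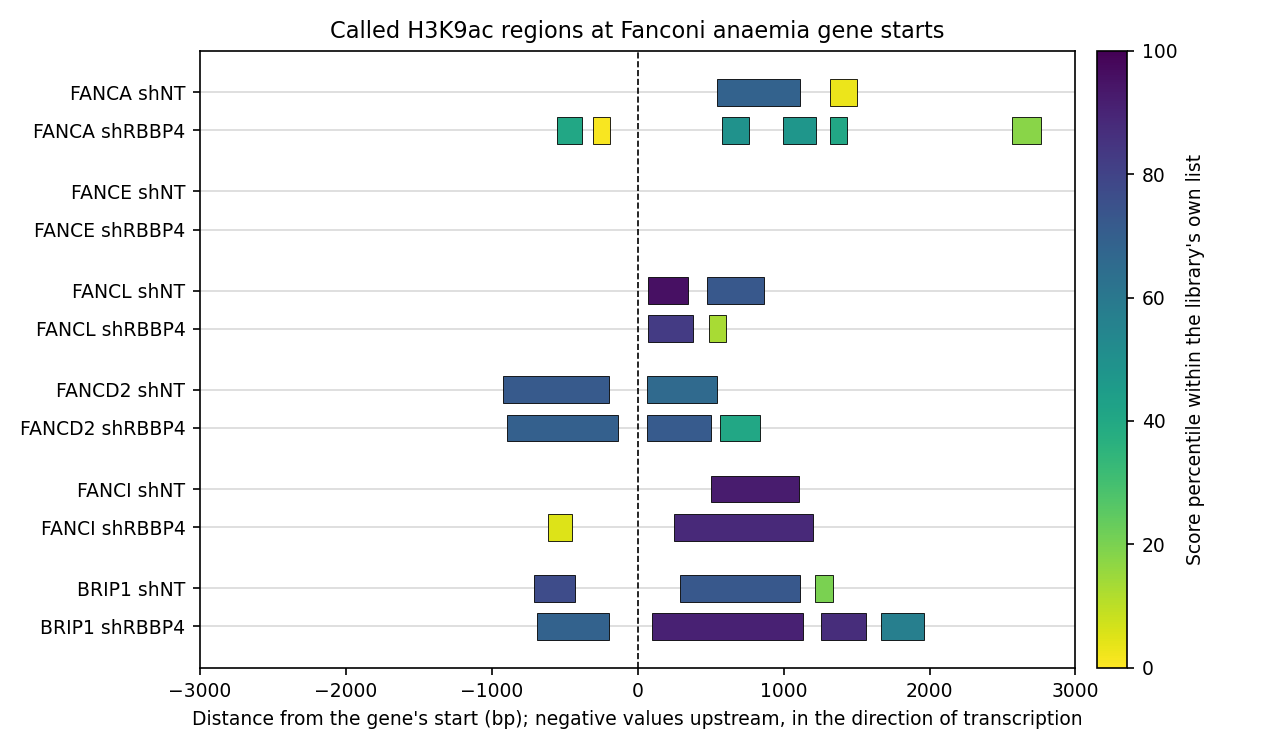
Called H3K9ac regions at the 6 gene starts, drawn by distance from the start in bp, with negative values upstream; each row is 1 gene in 1 library, and the colour gives the score percentile of the region within its own list. Regions of FANCD2 and BRIP1 flank the start in both libraries, those of FANCL lie downstream of it, and the FANCE rows are empty; the axis stops at 3 kb because no region lay farther out than 2765 bp.

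FANCA, the core complex subunit most often mutated in patients with Fanconi anaemia, lies on the minus strand of chromosome 16 with its start at 89883065. In shNT it had 2 regions, both downstream. The main one ran from 546 to 1113 bp after the start (89881952-89882519), was 568 bp wide and stood at percentile 68.75 of its list by score. A weak one of 180 bp, from 1321 to 1500 bp, stood at percentile 2.91. In shRBBP4 there were 6 regions, all narrow. Within the stretch of the main shNT region and its edges, shRBBP4 had a region of 186 bp from 578 to 763 bp (percentile 48.93) and one of 224 bp from 999 to 1222 bp (percentile 47.64). Another, of 116 bp, ended on the same base, 89881744, as the weak shNT region and stood at percentile 40.52. The remaining 3 had no overlap with shNT: 2 lay upstream, 190 to 305 and 382 to 550 bp before the start, at percentiles 0.86 and 40.52, and 1 lay 2565 to 2765 bp after it, at percentile 17.67. In shNT the nearest upstream region was 56.2 kb away. The highest-scoring FANCA region of shRBBP4, the one of 186 bp, had exactly the median score of its list, shared with many regions and so ranked at percentile 48.93, and the other 5 scored below it.

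FANCA covered length was 748 bp in shNT. It was 1012 bp in shRBBP4, which was 1.35 times as long, and 417 bp were covered in both. That excess of 264 bp came from weak regions and turned its direction under other settings. In lists of equal length shRBBP4 covered 53 bp less, and in the higher-scoring 50% of each list it covered 382 bp less. Its widest region was 224 bp, against 568 bp in shNT. FANCA thus had more regions in shRBBP4, while each was shorter and of lower rank than the main shNT region.

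FANCE, the subunit through which the core complex contacts FANCD2, had no called region within 5 kb of its start at 35420138 on chromosome 6, and none within 10 kb. The nearest region downstream was in nearly the same place in both libraries, 15.5 kb away, at 35435644-35435766 in shNT (percentile 29.38) and 35435656-35435815 in shRBBP4 (percentile 40.52). Upstream, the nearest region was 81.0 kb away in shNT and 25.9 kb away in shRBBP4, both weak, at percentiles 12.18 and 11.54. RPL10A, a ribosomal protein gene, and PPARD, a nuclear receptor gene, are its neighbours in the GRCh38.p14 gene table. The neighbourhood was not empty: within 1 Mb of the start there were 29 regions in shNT and 42 in shRBBP4. The lists hold regions above a limit that the sources used here do not give, so a weaker signal at FANCE would not be listed.

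FANCL, the ubiquitin ligase of the core complex, was the one gene with less covered length in shRBBP4. Its start is at 58468515 on the minus strand of chromosome 2. Each library had 2 regions there, all downstream. The region next to the start began 68 bp after it in both libraries, on the same base, 58468447. In shNT this region was 277 bp wide and stood at percentile 95.94, the highest of all 27 regions at the 6 genes. In shRBBP4 it was 314 bp wide and stood at percentile 82.54. The second region was 387 bp wide at percentile 72.69 in shNT (478 to 864 bp after the start) and 116 bp wide at percentile 12.91 in shRBBP4 (486 to 601 bp). Together they covered 664 bp in shNT. In shRBBP4 they covered 430 bp, 0.648 times that length, with 393 bp in common.

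No upstream region was called at FANCL for 2.51 Mb in either library. It also stood in a sparse stretch, with 2 other regions within 1 Mb in shNT and 6 in shRBBP4. Its surroundings and its chromosome, where shRBBP4 had 3203 regions and shNT 2032, thus had more regions in shRBBP4 while FANCL had shorter coverage. The difference, shRBBP4 minus shNT, was -350 bp both in the higher-scoring 50% and in lists of equal length. By the span of clusters, gaps included, it was -263 bp. Windows of 1, 2 and 10 kb could not change it, because all FANCL regions lay within 864 bp of the start. For the widest region it was -73 bp, but that was the second region in shNT and the one next to the start in shRBBP4.

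FANCD2, the protein that receives the ubiquitin, had the most similar regions in the 2 libraries. Its start is at 10068113 on chromosome 3. An upstream region of 730 bp, 196 to 925 bp before the start (10067188-10067917), stood at percentile 72.19 in shNT. Its shRBBP4 counterpart was 757 bp wide, lay 138 to 894 bp before the start (10067219-10067975) and stood at percentile 69.65. A downstream region of 480 bp, from 61 to 540 bp, stood at percentile 65.80 in shNT. Its counterpart of 437 bp, from 65 to 501 bp, stood at percentile 71.78 in shRBBP4. The stretch without a region that held the start was 256 bp long in shNT and 202 bp in shRBBP4, the shortest of the 6 genes in both. The E2F core match printed above lies at the RefSeq start, and so falls in this stretch if that start and the hg19 start are the same base.

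An additional region of 280 bp, 561 to 840 bp after the start, was called in shRBBP4 alone, at percentile 40.52. Covered length was 1210 bp in shNT and 1474 bp in shRBBP4 (ratio 1.22), and 93.9% of the shNT length was also covered in shRBBP4. The excess of 264 bp was less than the width of that region. In the higher-scoring 50% of each list, which leaves that region out, shRBBP4 covered 16 bp less. The highest-scoring FANCD2 region was the upstream one in shNT and the downstream one in shRBBP4, with percentiles of 72.19 and 71.78.

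FANCI, the partner of FANCD2 on DNA, had 1 strong downstream region in both libraries. Its start is at 89787194 on chromosome 15. In shNT the region ran from 505 to 1103 bp after the start (89787699-89788297), was 599 bp wide and stood at percentile 92.45. In shRBBP4 it ran from 251 to 1200 bp (89787445-89788394), was 950 bp wide and stood at percentile 88.58, so it held the whole shNT region and extended it on both sides. An upstream region of 164 bp, 453 to 616 bp before the start, was called in shRBBP4 alone and stood at percentile 5.08. The nearest upstream region of shNT was 139 kb away. Covered length was 599 bp in shNT. It was 1114 bp in shRBBP4, and the ratio of 1.86 was the highest of the 5 genes. Within 1 Mb of FANCI the number of other regions was 64 in shRBBP4 against 39 in shNT (ratio 1.64), and the part of this in the result was not tested.

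BRIP1, the helicase, had the longest covered length in shRBBP4 and was the one gene with a higher top percentile there. Its start is at 59940920 on the minus strand of chromosome 17. The main downstream region was 822 bp wide in shNT, from 292 to 1113 bp after the start (59939807-59940628), at percentile 72.69. In shRBBP4 it was 1031 bp wide, from 100 to 1130 bp (59939790-59940820), at percentile 90.65. Farther downstream, shNT had a weak region of 123 bp at percentile 19.95, which overlapped an shRBBP4 region of 309 bp at percentile 87.40. An additional shRBBP4 region, of 292 bp and 1669 to 1960 bp after the start, had no overlap with shNT and stood at percentile 57.12. The downstream signal in shRBBP4 was therefore longer and of higher rank than in shNT.

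On the upstream side of BRIP1 the order of ranks was the other way round. The upstream region was 282 bp wide at percentile 77.29 in shNT, its highest there, and 490 bp wide at percentile 68.99 in shRBBP4. Its edge nearest the start was at 428 bp in shNT and at 198 bp in shRBBP4, and the stretch without a region around the start was 719 bp and 297 bp long. Covered length was 2122 bp in shRBBP4 against 1227 bp in shNT (ratio 1.73), and 94.5% of the shNT length was also covered in shRBBP4. Within 1 Mb there were 19 other regions in shRBBP4 against 13 in shNT (ratio 1.46).

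**Figure D2:**
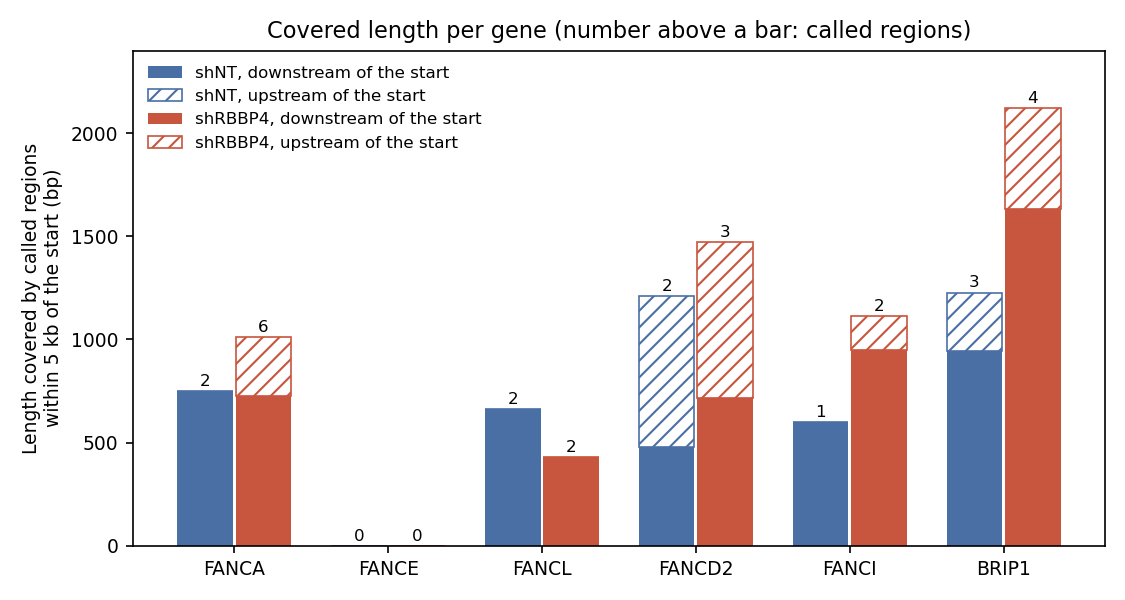
Length in bp covered by called regions within 5 kb of each gene's start in shNT (blue) and shRBBP4 (red), 1 library each, split into downstream (filled) and upstream (hatched) parts; the number above each bar counts regions. The shRBBP4 bar is the higher one at FANCA, FANCD2, FANCI and BRIP1 and the lower one at FANCL (430 against 664 bp), and FANCE has none.

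Set beside the whole lists, the covered length of these genes differed much as it did elsewhere. Covered length was longer in shRBBP4 at 4 of the 5 genes with regions. For comparison, regions of both libraries were joined across gaps of up to 1 kb, which gave 10454 clusters holding regions of both, and shRBBP4 covered the longer part in 71.9% of them. The share among the genes is near that background. Summed over the genes, shRBBP4 covered 6152 bp and shNT 4448 bp, a ratio of 1.38, or 1.25 without BRIP1, against 1.51 for the whole lists and a median of 1.33 over the clusters. The cluster at FANCL was at the low end, with 8.46% of all clusters at or below its ratio. The clusters at FANCA, FANCD2, BRIP1 and FANCI had 34.2%, 43.5%, 67.6% and 71.5% of clusters at or below theirs, which places them inside the middle 50%, between the quartiles of 0.958 and 2.0. At FANCA the cluster leaves out the farthest shRBBP4 region, and its ratio was 1.08.

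**Figure D3:**
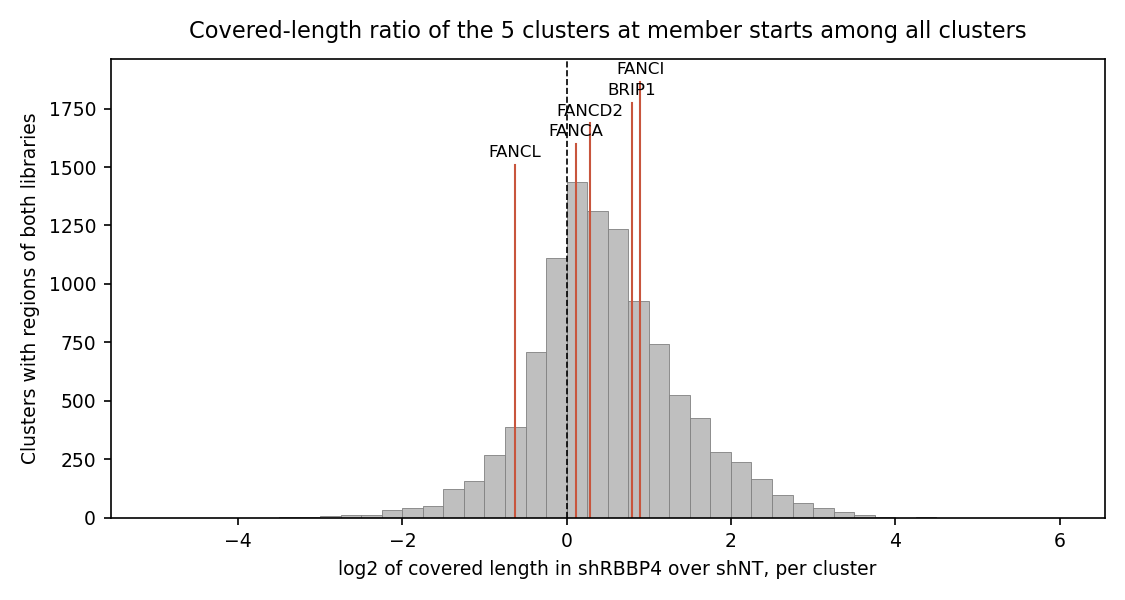
Histogram of the log2 ratio of covered length in shRBBP4 over shNT for the 10454 clusters with regions of both libraries; red lines mark the clusters at the starts of 5 genes and the dashed line equal length. FANCL lies to the left of the dashed line, and the other 4 lie to its right, near the bulk of all clusters.

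The number of regions was higher in shRBBP4 at 4 of 5 genes and equal at FANCL, where 45.0% of clusters had more regions in shRBBP4. Genes were counted over their 5-kb windows and clusters over their own extent, and the clusters were not matched to the genes by width or position. The comparison with 45.0% is therefore not a matched one. The additional regions were mostly weak, and 3 of the 4 genes, all but BRIP1, did not have more regions when the higher-scoring 50% of each list was used. All 10 shNT regions at the genes overlapped an shRBBP4 region by at least 1 bp. That was 100% (exact Clopper-Pearson 95% interval 69.2 to 100%), against 77.0% of the whole shNT list. Of these 10, 8 scored at or above the median of their list, and 8 were wider than its median width. No share was computed for shNT regions of like score or width, so the comparison with 77.0% is not a matched one. In shRBBP4, 11 of 17 regions met one of shNT (64.7%, 38.3 to 85.8%), against 50.04% of the whole shRBBP4 list. The intervals cover counting error only, and regions of 1 promoter are not independent. The 6 regions without overlap stood at percentiles 0.86 to 57.12, with a median of 29.1, and all but the farthest FANCA region had an shNT region within 1 kb. Among the 8 shRBBP4 regions that scored below the median of the list, 3 overlapped an shNT region, where 30.7% did so over all such shRBBP4 regions. Among the 9 at or above it, 8 did, and the exception was at BRIP1. The share over all shRBBP4 regions of that upper band was not computed separately. Over the whole list 19669 of 39303 regions overlapped an shNT region, and 5772 of these were among the 18798 below the median. The rest of the overlaps fell in the upper band, so its share is above the 50.04% of the whole list. The 8 of 9 therefore cannot be called high against that 50.04%. With a reciprocal overlap of at least 50%, 7 regions of each library were shared, 70.0% in shNT and 41.2% in shRBBP4. Shares of the whole lists under this rule, or within 1 kb, were not computed, so these counts cannot be called high or low.

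The highest score percentile per gene was lower in shRBBP4 at 4 of 5 genes and higher at BRIP1. Over the clusters it was higher in shRBBP4 in 63.6%. The clusters were of every rank, while the top shNT percentiles of the 5 genes ran from 68.75 to 95.94. No share was computed for clusters of like rank, so the comparison with 63.6% is not a matched one. At the 4 genes with a lower value in shRBBP4, the gap ran from 0.41 percentile points at FANCD2 to 19.8 at FANCA. It was 3.87 at FANCI and 13.4 at FANCL. At BRIP1 the shRBBP4 value was 13.4 points higher. The lists differ in length and their depths are unknown, so a rank that differs between them does not show that the mark differed. In lists of equal length, where only the weaker shRBBP4 regions are removed and the ranks of the rest fall by construction, the top shRBBP4 percentile was 25.18 at FANCA, 74.41 at FANCL, 58.66 at FANCD2, 83.27 at FANCI and 86.30 at BRIP1, and the shNT values stayed as given. When the median percentile of a gene's regions was used, FANCA, FANCD2 and BRIP1 were higher in shRBBP4. By that measure FANCI was at 92.45 in shNT and 46.83 in shRBBP4, where the weak upstream region enters the median, and FANCL was at 84.31 and 47.72. The highest-scoring regions of both libraries overlapped at FANCA, FANCL and FANCI and lay on opposite sides of the start at FANCD2 and BRIP1, so they overlapped at 3 of 5 genes, where 63.3% of clusters had such an overlap.

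**Figure D4:**
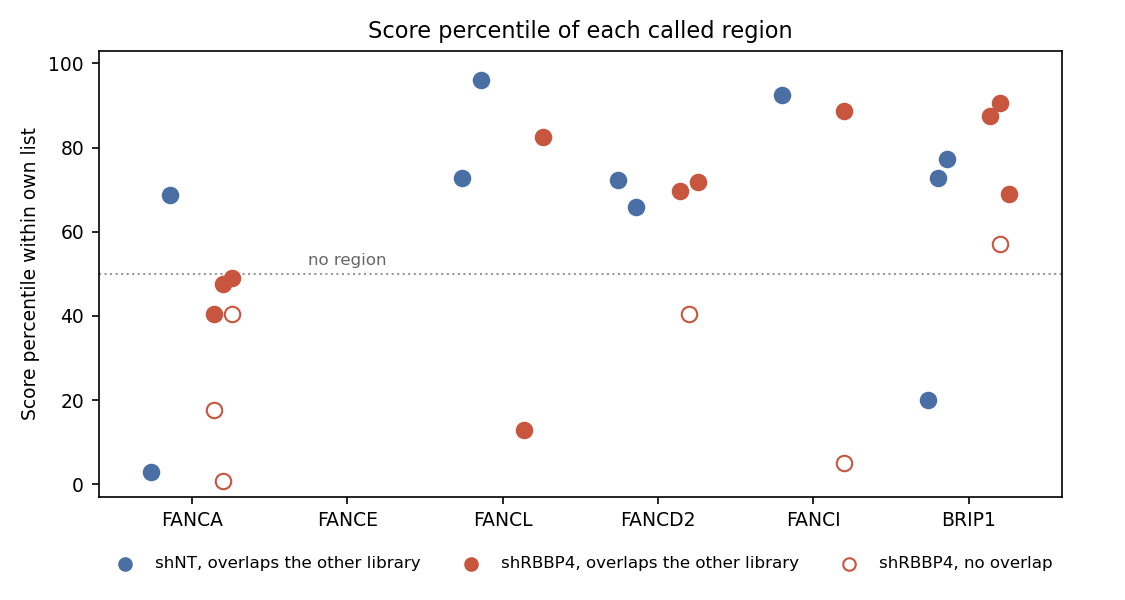
Score percentile of each called region within its own library's list, by gene, for shNT (blue) and shRBBP4 (red); open circles are shRBBP4 regions that overlap no shNT region, and the dotted line is percentile 50, with tied scores given their mean rank. The 6 FANCA regions of shRBBP4 reach at most percentile 48.93, and the 3 highest points of shRBBP4 belong to BRIP1 and FANCI.

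The median width of the regions at these genes was 433.5 bp in shNT, against 210 bp for the whole list, and 280 bp in shRBBP4, against 213 bp. In shNT 8 of 10 regions and in shRBBP4 10 of 17 were wider than the median of the list. The whole lists hold regions of every position, and widths over all gene starts were not computed. Whether these regions are wide among those at promoters therefore cannot be said. Above percentile 90 stood 2 shNT regions, at FANCL and FANCI, and 1 shRBBP4 region, at BRIP1. The neighbourhoods differed as well. Outside the 5-kb windows, the ratio of shRBBP4 to shNT regions within 1 Mb was lowest at FANCA, 1.12 (55 against 49 regions), on a chromosome with a ratio of 1.17, and it was 1.27 at FANCD2 and 1.45 at FANCE. The part of these surroundings in the values at the genes was not tested.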

How the data were processed

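H3K9ac ChIP-seq libraries of T98G cells with shNT or shRBBP4, 1 each, were used. Per the file headers, the authors deposited 1 list of regions per library, whose track lines name macs2 and PE. Per the submitters' processing notes, SICER, Picard, BWA and bcl2fastq 2.15.0 were used in some role, with the build hg19 (GRCh37). Header and notes thus name different callers, and the threshold or any use of the input is not given in the sources used here. The deposited score per region is the authors' value on an unstated scale, so it was used only as a rank within its own list (percentile, ties averaged). Read depth is unknown, and no test between the libraries was possible.

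Regions reaching within 5 kb of the given hg19 starts were taken, with starts counted from 1. Covered length was clipped to that window. Strands came from RefSeq promoters, and that of FANCI from general knowledge. All 6 genes are named by rule, and the other pathway genes on the list (FANCC, FANCG and others) were not analysed here for want of hg19 starts. The members and lists were chosen with earlier results of these data known. Interval functions were tested on simulated lists. Alternatives were windows of 1, 2 and 10 kb, stricter lists, clusters, and other width, rank and overlap rules. Software was matplotlib 3.10.9, pandas 2.3.3, numpy 2.4.6, scipy 1.17.1 and Python 3.11.15.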

Additional observations from a re-analysis of the deposited data

How the results depend on the processing

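No paired analysis was possible because there was a single H3K9ac library for each shRNA. Regions were called at 5 genes in both libraries in windows of 1, 2 and 10 kb, in the higher-scoring 50% of each list and in lists of equal length. The number of genes with more regions in shRBBP4, 4 in the full lists, was 1 in the higher-scoring 50%, which holds fewer regions by construction, and 1 when clusters were counted. The number with longer coverage in shRBBP4 was 2 in the higher-scoring 50%. The number with a higher percentile in shRBBP4 was 3 by the median over a gene's regions. Of the shRBBP4 regions, 41.2% were shared with a reciprocal overlap of 50% (70.0% of the shNT regions), and 94.1% were with any shNT region within 1 kb counted. The top shNT region then had an shRBBP4 region nearby at all 5 genes. Shares of the whole lists were not computed under either of these overlap rules. The difference in covered length, shRBBP4 minus shNT, turned negative at FANCA in the higher-scoring 50% (-382 bp), in lists of equal length (-53 bp) and for the widest region (-344 bp), and at FANCD2 in the higher-scoring 50% (-16 bp). The difference in percentile turned positive by the median over regions at FANCA (4.69) and FANCD2 (0.66), and was -45.62 at FANCI and -36.59 at FANCL. In lists of equal length it was -43.58 at FANCA, -21.52 at FANCL, -13.53 at FANCD2 and -9.18 at FANCI. For the other changes the cause was not tested. Unknown depth and 1 library per group limit every comparison.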
